A study of Mus musculus with 2 samples.

Results

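The enzymes that split glucose, draw off its carbon for pentoses and burn the remainder in mitochondria were compared between marginal zone and follicular B cells of the mouse spleen. The set held 43 genes of glycolysis, the pentose phosphate pathway, pyruvate entry and the citrate cycle, chosen by symbol. Of these, 39 were among the 12393 genes with at least 1 probe set annotated to them alone, with 77 such probe sets in all, and 38 were measured, meaning that at least 1 of their probe sets exceeded a floor of 12.7, the median of all scaled signals. Each measured gene is represented by its brightest probe set. For 37 genes that probe set was above the floor on both arrays. Idh2 was above it on the follicular array alone, so its ratio is a bound.

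Marginal zone B cells sit beside the marginal sinus of the spleen, where blood is filtered. Follicular B cells recirculate through lymphoid follicles. There was 1 array of each population, marginal zone (intermediate CD23, high CD21) and follicular (high CD23, intermediate CD21). Both were sorted from B cells that magnetic beads against B220 had pulled out of the spleens of wild-type female C57BL/6 mice; the labels name 3 mice, pooled before lysis, and give no age. Whether both sorts used the same mice is not stated. With 1 array a group there was no replicate error and no test. Differences are given as sizes, with 2-fold as the threshold for a call, and the spread between probe sets of a gene, an SD of 0.44 on the log2 scale over 2622 genes, covers probe behaviour only.

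The labels fitted the sort. Cr2, which encodes CD21, was at 889.9 in marginal zone and 277.9 in follicular cells, and Fcer2a, which encodes CD23, was at 89.6 in marginal zone and 726.8 in follicular cells. B cell transcripts were present in both samples: 5 of 6 listed genes were measured, 2 of them higher in marginal zone cells, with Ms4a1, which encodes CD20, at 1878 in marginal zone and 1754 in follicular cells. The B cell receptor chains were lower in the marginal zone sample, with Cd79a at 115.6 in marginal zone and 196.7 in follicular cells and Cd79b at 545.9 in marginal zone and 1039.9 in follicular cells. Among transcription factors, Pax5 had a log2 ratio (marginal zone over follicular) of -0.32 and Ebf1 of 0.13. Pax5 was dim, at 16.6 in marginal zone and 20.7 in follicular cells. The 3 probe sets of Ebf1, from -0.19 to 0.13, disagreed in sign. Macrophage transcripts were dim and differed unevenly between the samples. All 9 measured genes of a list of 16 had the higher signal in the marginal zone sample, beside 47.8% of all measured genes. Of these, Cd5l, C1qb, Cd14, Vcam1, Cd68 and Slc40a1 were below the floor on the follicular array. They were measured through the marginal zone array alone and could only come out higher there. Csf1r, Lyz2 and Adgre1 were above the floor on both arrays. Adgre1 was nearly equal, at 24.9 in marginal zone and 23.7 in follicular cells. The signals summed over the 15 genes with a probe set came to 231.6 in the marginal zone sample and 104.3 in the follicular sample. Csf1r was at 42.5 in marginal zone and 17.3 in follicular cells, 2.46-fold higher in the marginal zone sample. Its 3 measured probe sets had log2 ratios from 0.17 to 1.7. Cd5l was at 26.7 in marginal zone and 11.1 in follicular cells, at least 2.11-fold higher. Lyz2 was at 25.2 in marginal zone and 12.9 in follicular cells, 1.95-fold higher, with the follicular signal barely above the floor. C1qa, C1qc, Marco, Siglec1, Itgam and Hmox1 of that list were not above the floor on either array. Of plasma cell genes, which highly secretory B cells express, 4 of 6 were higher in the marginal zone sample, beside 47.8% of all measured genes. The signals of the 6 summed to 1328 there and to 1076 in the follicular sample. The widest difference went the other way. Sdc1 was at 4.4 in marginal zone cells, below the floor, and 68.3 in follicular cells, at least 5.39-fold higher in follicular cells. Its 3 measured probe sets ranged widely, with log2 ratios from -2.43 to -0.32. Prdm1 was at 30.9 in marginal zone and 12.7 in follicular cells, 2.43-fold higher in marginal zone cells. Xbp1, the brightest, was at 659.0 in marginal zone and 396.6 in follicular cells, with probe sets from -0.98 to 0.73 that disagreed in sign. Irf4 was nearly equal, at 527.1 in marginal zone and 532.4 in follicular cells. The gap between the sums was mostly that of Xbp1. Measured members of the other lists were few: 2 of 7 for T cells (0 higher in the marginal zone sample), 1 of 5 for NK cells (1 higher), 3 of 7 for granulocytes (2 higher), 1 of 4 for plasmacytoid dendritic cells (1 higher), 1 of 6 for erythroid cells (0 higher) and 1 of 4 for platelets (1 higher). Of these, Cd3e, Cd4, S100a9 and Hba-a1 were below the floor on the marginal zone array, and Ngp and Elane on the follicular array. Their direction was therefore fixed by the filter. The measured gene of the plasmacytoid dendritic cell list was Tcf4, at 608.9 in marginal zone and 422.3 in follicular cells. Bst2 and Ccr9 of that list were not above the floor on either array. The part of these other cells, macrophages and plasma cells included, in the ratios that follow was not tested.

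Glycolysis turns glucose into pyruvate in the cytosol, first spending ATP and then regaining it, and lactate dehydrogenase can reduce the pyruvate to lactate. The pentose phosphate pathway leaves glycolysis at glucose 6-phosphate and yields NADPH and ribose. Pyruvate dehydrogenase feeds acetyl-CoA into the mitochondrial citrate cycle, whose reduced cofactors drive respiration. Lymphocytes are known to raise these pathways when they are activated.

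Most enzyme genes differed little, and the signals leaned toward marginal zone cells. Of the 38 measured genes, 26 (68.4%) were brighter in marginal zone cells, beside 47.8% of all 7695 measured genes, and 12 were brighter in follicular cells, beside 52.2%. Their median log2 ratio (marginal zone over follicular, as for every log2 ratio given here) was 0.26, beside -0.03 over all measured genes. Tpi1 and Dlst passed 2-fold toward marginal zone cells, 2 of 38 beside a background of 4.39% of all measured genes. Rpia alone passed it toward follicular cells, beside a background of 4.86%. Both counts lie near their backgrounds, and both moved with the scaling: with deposited values, a common median or either centring, Hk2 joined the first, making 3, and Rpia dropped out of the second, making 0, while quantile normalization gave 3 and 1. At 1.5-fold, 9 genes were higher in marginal zone cells (background 13.7%), 2 were higher in follicular cells (background 15.8%) and 27 lay between. In a bulk sample, more cells of a kind and more RNA per cell cannot be told apart, and this holds for every ratio given here.

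**Figure D1:**
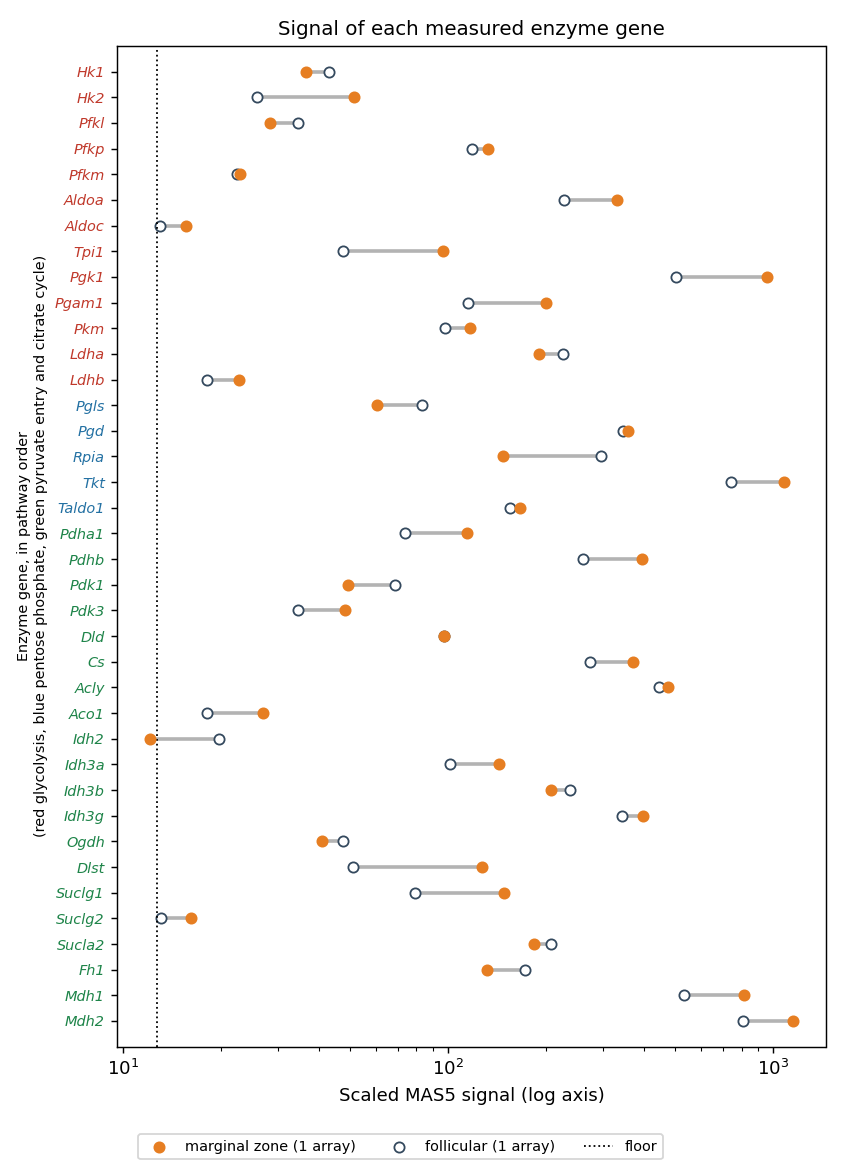
Scaled MAS5 signal (log axis) of the 38 measured enzyme genes in marginal zone (filled) and follicular (open) B cells, 1 array each, in pathway order, with the floor of 12.7 as a dotted line. The wide gaps with marginal zone on the right are at Hk2, Tpi1, Pgk1, Pgam1, Dlst and Suclg1, and the widest with follicular on the right is at Rpia.

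By pathway, glycolysis had a median log2 ratio of 0.26 over 13 measured genes, 10 of them (76.9%) higher in marginal zone cells. Pyruvate entry and the citrate cycle had a median of 0.37 over 20 genes, 13 of them (65%) higher in marginal zone cells. The pentose phosphate pathway had a median of 0.05 over 5 genes, with 3 genes (60%) higher in marginal zone cells and 2 higher in follicular cells. The share over all measured genes was 47.8%. With so few genes a pathway these shares are coarse, and differences between pathways were not tested. Most of the enzyme genes were bright. Of the 30 enzyme genes at or above the median mean log2 signal, 66.7% were higher in marginal zone cells, beside 48.6% of all 3848 genes in that range.

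**Figure D2:**
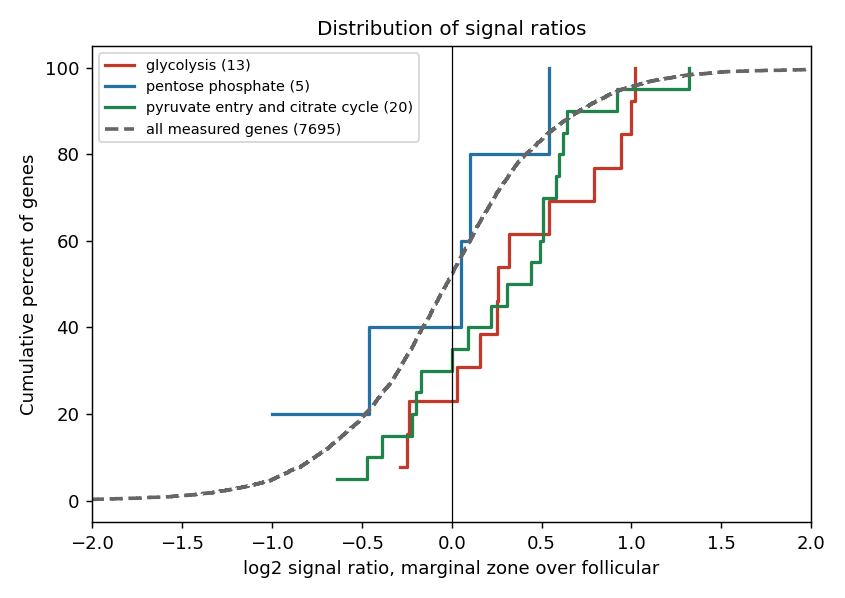
Cumulative percent of genes against the log2 signal ratio (marginal zone over follicular) for glycolysis (13 genes), pentose phosphate (5), pyruvate entry and citrate cycle (20) and all 7695 measured genes (dashed). The glycolysis and citrate cycle curves lie mostly to the right of the dashed curve, with medians of 0.26 and 0.37 beside -0.03 for all genes; a few genes a pathway make each curve coarse.

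Glycolysis begins with hexokinase, which traps glucose in the cell as its phosphate. Hk2, the inducible hexokinase, had a signal of 51.4 in marginal zone and 25.8 in follicular cells, 1.99-fold higher in marginal zone cells and just short of the threshold. Hk1, the constitutive hexokinase, was at 36.5 in marginal zone and 43.2 in follicular cells. The hexokinase genes thus differed in opposite directions, and each rests on 1 measured probe set. Hk2 was dim on both arrays; a floor set at the 75th percentile brought its log2 ratio down to 0.17.

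Phosphofructokinase commits the sugar to glycolysis and is its main control point. None of its 3 genes stood apart. Pfkp, the platelet-type subunit, was at 132.6 in marginal zone and 118.3 in follicular cells, and Pfkm, the muscle-type subunit, at 23.0 in marginal zone and 22.5 in follicular cells. Pfkl, the liver-type subunit, was at 28.3 in marginal zone and 34.6 in follicular cells, but a second probe set gave a log2 ratio of 0.35, the opposite direction.

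Aldolase cleaves the sugar into 3-carbon sugars that triosephosphate isomerase interconverts. Aldoa, the main aldolase outside liver and brain, was at 331.4 in marginal zone and 227.9 in follicular cells, a log2 ratio of 0.54, and its 4 probe sets ran from 0.21 to 0.54. Aldoc, the brain-type aldolase, was at 15.6 in marginal zone and 13 in follicular cells, barely above the floor. Tpi1, the isomerase, was at 96.7 in marginal zone and 47.6 in follicular cells, 2.03-fold higher in marginal zone cells. Its 3 probe sets had log2 ratios of 0.92, 1.02 and 1.26, all on the same side of 0. The 2-fold call ended by the 0.92 probe set and, at 0.86, when a pseudocount replaced the floor.

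The later steps, where ATP is regained, were brighter in marginal zone cells at each of the 3 measured enzymes, beside 47.8% of all measured genes. Pgk1, phosphoglycerate kinase, which makes the first ATP of the pathway, was at 957.6 in marginal zone and 500.6 in follicular cells, 1.91-fold higher in marginal zone cells, with log2 ratios of 0.94, 0.79 and 0.69 by its 3 probe sets. Pgam1, the mutase that follows it, was at 199.6 in marginal zone and 115.1 in follicular cells, 1.73-fold higher in marginal zone cells. Pkm, pyruvate kinase, which makes the last ATP, was at 117.1 in marginal zone and 98.2 in follicular cells, a log2 ratio of only 0.25. Gapdh acts just before Pgk1, Eno1 between Pgam1 and Pkm, and Gpi1 after hexokinase. None of the 3 had a probe set annotated to it alone, and no value is given for them.

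The lactate dehydrogenase genes lay on opposite sides of 0. Ldha, the subunit typical of glycolytic cells, was at 190.1 in marginal zone and 225.4 in follicular cells, a log2 ratio of -0.25. Ldhb, the heart-type subunit, was dim, at 22.7 in marginal zone and 18.2 in follicular cells, a log2 ratio of 0.32.

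The pentose phosphate pathway split between its genes. Rpia, the isomerase that makes ribose 5-phosphate for nucleotides, was at 147.9 in marginal zone and 296.4 in follicular cells, 2-fold higher in follicular cells by its single probe set; under the settings that ended this call its log2 ratio was between -0.98 and -0.94. Tkt, transketolase, which returns pentose carbon to glycolysis, went the other way, at 1078.9 in marginal zone and 743.0 in follicular cells, with log2 ratios of 0.54 and 0.62 by its probe sets.

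Of the oxidative branch, which makes NADPH, Pgls, the lactonase, was at 60.6 in marginal zone and 83.3 in follicular cells. Pgd, the second dehydrogenase, was at 358.2 in marginal zone and 345.1 in follicular cells, and its 4 probe sets disagreed in sign, with log2 ratios between -0.45 and 0.19. Taldo1, transaldolase, was at 166.5 in marginal zone and 154.8 in follicular cells. G6pdx, the entry enzyme, had no probe set annotated to it alone.

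Promoter sequence is shown for genes that stood apart or stayed close. Pgk1 and Pgam1 are neighbouring glycolytic steps higher in marginal zone cells, Ldha is a glycolytic gene that, like Hk1 and Pfkl, was lower in marginal zone cells, and Rpia is the gene lowest in marginal zone cells. The windows are the 250 bases before a RefSeq start (GRCm38.p6), 5′ to 3′ on the gene's strand: chrX:106186850-106187099 on the plus strand for Pgk1, chr19:41911621-41911870 on the plus strand for Pgam1, chr7:46845554-46845803 on the plus strand for the first of 2 Ldha starts, and chr6:70792176-70792425 on the minus strand for Rpia. Capitals mark ACGTG on either strand, the core of the element bound by hypoxia-inducible factors, which also lies within CACGTG, the E-box bound by Myc with Max.
Pgk1: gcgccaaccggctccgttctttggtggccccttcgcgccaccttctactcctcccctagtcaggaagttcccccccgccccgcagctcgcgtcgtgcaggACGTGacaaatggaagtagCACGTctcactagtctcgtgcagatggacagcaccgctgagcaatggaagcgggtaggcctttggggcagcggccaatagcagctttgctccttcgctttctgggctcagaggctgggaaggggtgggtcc
Pgam1: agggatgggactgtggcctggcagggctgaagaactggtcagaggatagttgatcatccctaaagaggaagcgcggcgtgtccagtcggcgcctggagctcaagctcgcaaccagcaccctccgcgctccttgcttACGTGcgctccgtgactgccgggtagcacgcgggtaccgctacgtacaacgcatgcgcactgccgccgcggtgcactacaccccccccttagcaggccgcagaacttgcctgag
Ldha: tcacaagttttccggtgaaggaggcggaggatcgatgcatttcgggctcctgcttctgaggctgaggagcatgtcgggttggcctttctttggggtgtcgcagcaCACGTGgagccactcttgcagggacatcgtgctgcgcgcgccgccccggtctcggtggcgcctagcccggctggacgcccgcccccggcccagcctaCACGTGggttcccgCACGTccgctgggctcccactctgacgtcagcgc
Rpia: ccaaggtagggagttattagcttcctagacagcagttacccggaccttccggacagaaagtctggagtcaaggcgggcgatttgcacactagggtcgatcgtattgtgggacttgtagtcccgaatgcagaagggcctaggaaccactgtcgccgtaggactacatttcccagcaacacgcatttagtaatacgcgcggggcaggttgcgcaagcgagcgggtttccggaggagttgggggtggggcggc
The Pgk1 window held 2 cores, the Pgam1 window 1, and the Ldha window 2 full E-boxes and a further core. No match was found in the Rpia window. RefSeq windows were matched for 42 of the 43 genes; Idh3a had none in the table. ACGTG on either strand was in at least 1 window of 13 of the 42 genes (31.0%), beside 18.5% of 27025 genes, and in 32.8% of the 61 windows of these genes, beside 16.6% of all windows. The 27025 genes include many that were not measured here. Of measured genes with a window, 1627 held ACGTG and 4644 did not, a larger share than 18.5%. Of those 13 genes, all measured, 11 were brighter in marginal zone cells, with a median log2 ratio of 0.49; of the 24 measured genes without it 14 did, with a median of 0.13. Over all measured genes the share higher in marginal zone cells was 50.9% of the 1627 with ACGTG and 47.0% of the 4644 without it. CACGTG was in windows of 3 genes (7.14%), Ldha, Ogdh and Pfkm, beside 6.86% of all genes. Of measured genes with a window, 655 held CACGTG and 5616 did not, a larger share than either. For CACGTG the split ran the other way. Of the 3 enzyme genes with it, 1 was brighter in marginal zone cells (median -0.22), against 24 of the 34 measured enzyme genes without it (median 0.29). Over all measured genes the shares were 51.6% of the 655 with CACGTG and 47.6% of the 5616 without it. These matches are letters in a window and no measurement of binding.

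Both subunits of the first enzyme of pyruvate dehydrogenase were higher in marginal zone cells. Pdha1, its alpha chain, was at 114.4 in marginal zone and 73.6 in follicular cells, 1.56-fold higher in marginal zone cells, and Pdhb, its beta chain, was at 395.8 in marginal zone and 260.9 in follicular cells, 1.52-fold higher. Pdha1 had a second measured probe set on the same side, at 0.53. The second of Pdhb, at 0.55, had a signal of 18.5 in marginal zone and 2.4 in follicular cells. The latter is below the floor, so 0.55 is a bound that could only take that side. Dld, the enzyme that the pyruvate dehydrogenase complex shares with the oxoglutarate complex, had nearly equal signals, at 97.3 in marginal zone and 97.5 in follicular cells. The kinases that switch the pyruvate dehydrogenase complex off went opposite ways. Pdk1 was at 49.4 in marginal zone and 68.5 in follicular cells, a log2 ratio of -0.47 with its other probe set at -0.01, and Pdk3 was at 48.3 in marginal zone and 34.5 in follicular cells, a log2 ratio of 0.49.

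The citrate cycle opens with citrate synthase. Cs was at 371.7 in marginal zone and 273.2 in follicular cells, and its 3 probe sets had log2 ratios from 0.20 to 0.44. Acly, which splits citrate in the cytosol to supply acetyl-CoA for lipid synthesis, was at 474.5 in marginal zone and 444.7 in follicular cells, with probe sets from -0.27 to 0.48 that disagreed in sign. Aco1, the cytosolic aconitase that doubles as an iron sensor, was dim, at 27.0 in marginal zone and 18.1 in follicular cells.

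Isocitrate dehydrogenase gave mixed values. Of the NAD-linked enzyme of the cycle, Idh3a, the catalytic subunit, was at 143.7 in marginal zone and 101.2 in follicular cells, a log2 ratio of 0.51. Its partner subunits were closer, with Idh3g at 0.22 and Idh3b at -0.20, and the other probe set of Idh3b at 0.10. Idh2, the mitochondrial NADP-linked enzyme, was at 12.1 in marginal zone cells, below the floor, and 19.8 in follicular cells, at least 1.56-fold higher in follicular cells. Idh1, the cytosolic NADP-linked enzyme, had 2 probe sets, and neither was above the floor on either array.

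The steps through succinyl-CoA held the widest differences of the cycle. Dlst, the succinyltransferase core of the oxoglutarate dehydrogenase complex, was at 127.0 in marginal zone and 51.0 in follicular cells, 2.49-fold higher in marginal zone cells. Its other measured probe set, at 25.7 in marginal zone and 31.5 in follicular cells, had a log2 ratio of -0.29, so the probe sets disagreed in sign. Ogdh, the first enzyme of that complex, was at 41.0 in marginal zone and 47.7 in follicular cells.

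Suclg1, the alpha subunit shared by both forms of succinyl-CoA ligase, was at 149.1 in marginal zone and 79.0 in follicular cells, 1.89-fold higher in marginal zone cells. The partner that sets the nucleotide differed less. Suclg2, the GTP-forming beta subunit, was at 16.2 in marginal zone and 13.1 in follicular cells, and Sucla2, the ATP-forming beta subunit, at 184.2 in marginal zone and 207.7 in follicular cells. Fh1, fumarase, was at 132.2 in marginal zone and 172.9 in follicular cells, a log2 ratio of -0.39.

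Malate dehydrogenase was higher in marginal zone cells in both compartments. Mdh1, the cytosolic enzyme, was at 815.0 in marginal zone and 530.7 in follicular cells, with log2 ratios of 0.62, 0.87 and 1.12 by its 3 measured probe sets. Mdh2, the mitochondrial enzyme that closes the cycle, was at 1152.7 in marginal zone and 809.9 in follicular cells, with log2 ratios of 0.51 and 0.74. The brightest probe sets of Mdh1, Pgk1, Tpi1, Tkt, Aldoa, Pgd, Acly and Aco1 carry the suffix that marks probes matching other transcripts as well. Without that kind of probe set, where another existed, the log2 ratio was 1.12 for Mdh1, which then passed 2-fold, 0.92 for Tpi1, which then did not, and 0.79 for Pgk1. Pgd fell to -0.45 and Acly to -0.19, and 24 of the 38 genes were then higher in marginal zone cells, against 26 before. Aldoa and Aco1 had no other kind of measured probe set to compare.

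**Figure D3:**
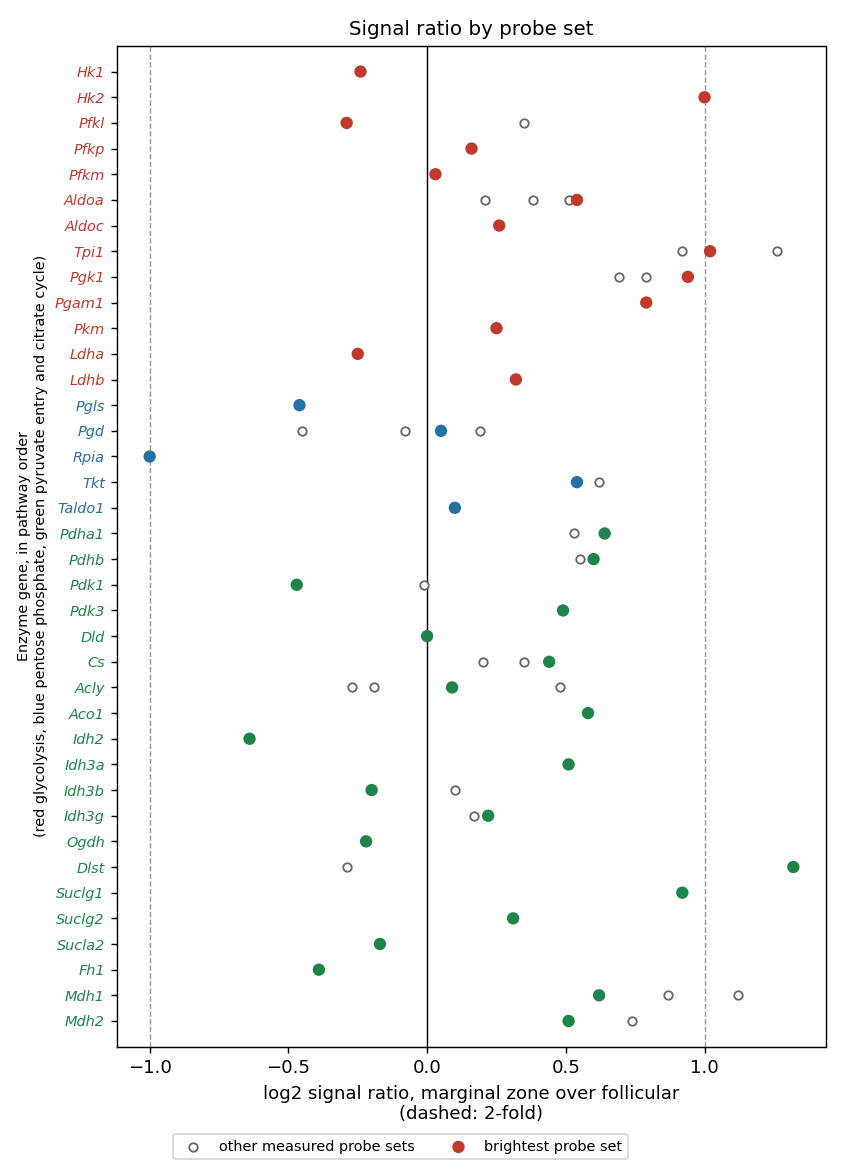
Log2 signal ratio (marginal zone over follicular) of each measured probe set of the 38 enzyme genes, with the brightest filled and the others open, and 2-fold as dashed lines. The probe sets of Tpi1, Pgk1, Aldoa, Mdh1, Mdh2 and Tkt all lie right of 0, and those of Dlst, Pfkl, Pgd, Acly and Idh3b lie on both sides.

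Probe sets gave a partial check on direction. Of 16 enzyme genes with several measured probe sets, 11 (68.8%) had all of them on the same side of 0, beside 59.3% of 2622 such genes on the arrays. The 5 that did not were Pfkl, Pgd, Acly, Idh3b and Dlst. Among the 11, Pdhb had a second probe set above the floor in marginal zone cells alone, which fixed its side. Such agreement is between probes on the same arrays and covers neither mice nor sorts.

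Genes next to these pathways, 62 in a list of transporters, other isozymes, regulators and neighbouring steps, were described the same way. Of 30 measured, 19 (63.3%) were higher in marginal zone cells, beside 47.8% of all measured genes, with a median log2 ratio of 0.15. Among the 19, Pfkfb2, Pfkfb3, Tktl1, Sdhc and Me1 were below the floor on the follicular array. Slc16a3 and Rpe were below the floor on the marginal zone array and lower there. At the probe set used, the direction of these genes was fixed by the filter. Rpe had another measured probe set on the opposite side of 0, at 0.41. At 1.5-fold the list had no lean, with 3 genes toward marginal zone and 3 toward follicular cells (backgrounds 13.7% and 15.8%). Past 2-fold there was 1 gene toward marginal zone cells (background 4.39%) and 0 toward follicular cells (background 4.86%). That gene was Got2, the mitochondrial aspartate aminotransferase that works with malate dehydrogenase to carry reducing equivalents into mitochondria, at 520.6 in marginal zone and 246.1 in follicular cells, a ratio of 2.12 by its single measured probe set.

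The next widest ratios of that list were at Acss2, Slc16a1 and Sdhd. Acss2, which makes acetyl-CoA from acetate, was dim, at 13.2 in marginal zone and 24.4 in follicular cells. Slc16a1, a carrier of lactate and pyruvate, was at 175.8 in marginal zone and 106.5 in follicular cells, 1.65-fold higher in marginal zone cells. Sdhd, an anchor subunit of succinate dehydrogenase, was at 85.6 in marginal zone and 54.9 in follicular cells, with log2 ratios of 0.64 and 0.74 by its probe sets.

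**Figure D4:**
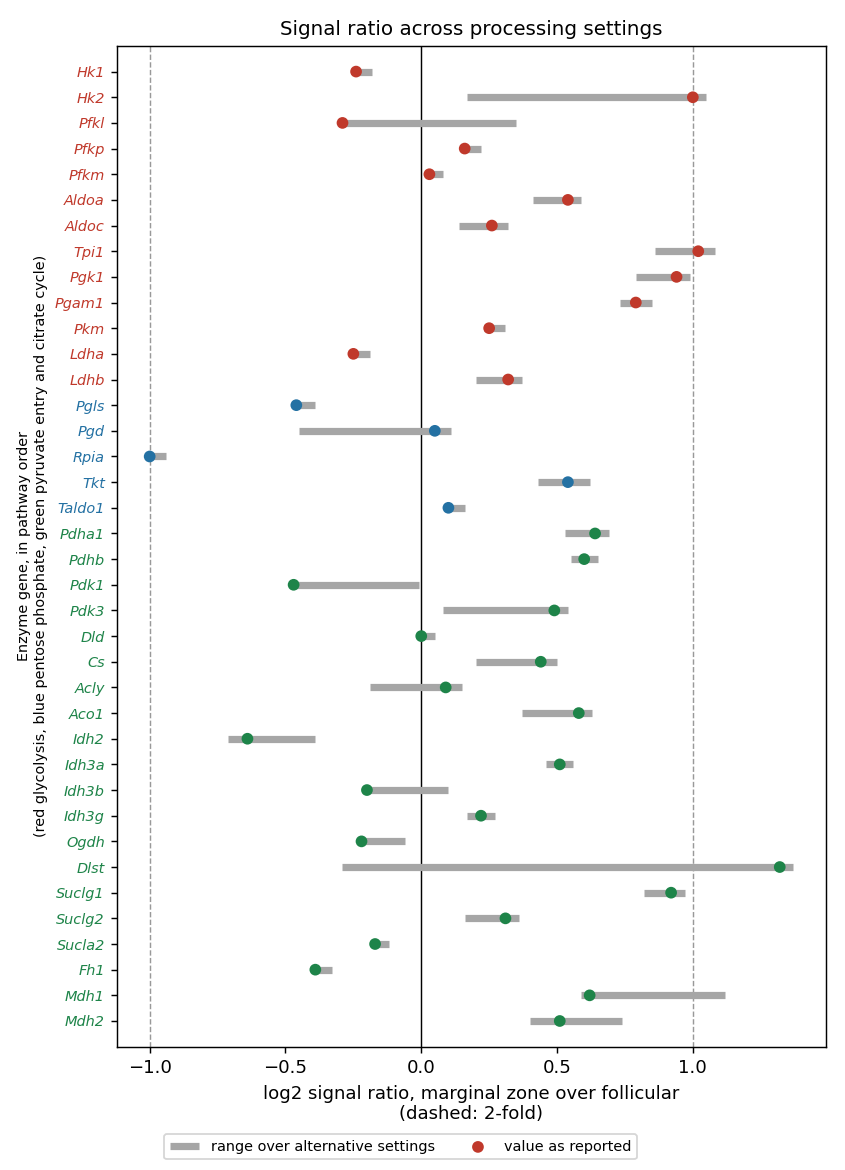
Log2 signal ratio (marginal zone over follicular) as reported (points) and its range over up to 12 alternative settings of scaling, floor and probe set choice (bars), for the 38 enzyme genes, with 2-fold as dashed lines. The bars of Dlst, Pfkl, Pgd, Acly and Idh3b reach across 0, that of Hk2 runs down to 0.17, and those of Tpi1, Pgk1, Pgam1 and Suclg1 stay between 0.73 and 1.08.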

How the data were processed

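RNA of sorted marginal zone and follicular B cells, about 100 ng a sample, was biotin-labelled in 2 cycles and hybridised to 1 single-colour Affymetrix array each, per the labels' protocols. The deposited values are intensities on a linear scale, from 0 to 8203.3 for marginal zone and from 0.1 to 8520.6 for follicular cells; they are MAS5 signals, per the submitters' processing notes. The sources used here give no version, scaling target or detection calls. Each of 22626 probe sets was scaled to a common trimmed mean (2% off each end), by factors of 0.990 for marginal zone and 1.01 for follicular, and raised to a floor of 12.7, the median. The platform annotation gave 20380 probe sets 1 gene, 691 several and 1555 none; Entrez identifiers of 20351 were found in RefSeq GRCm38.p6, and 0 symbols changed. A gene took its measured probe set of highest mean log2 signal. Computed with Python 3.11.15, numpy 2.4.6 and pandas 2.3.3, and tested on simulated data. No test between groups was possible. All 43 enzymes could be named. Of other lists, those past 2-fold and up to 4 with the widest ratios could be, and others where the floor limits a count. Members and lists were chosen with earlier results of these data known. Precision is limited by having 1 array a group.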

Additional observations from a re-analysis of the deposited data

How the results depend on the processing

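Each gene's ratio was recomputed under up to 12 alternatives: 5 scalings (1 of them, centring on an intensity-dependent lowess curve, chosen after seeing the data), 4 treatments of dim signals and 3 probe set rules. Of 38 enzyme genes, 32 had the same sign throughout and 6 did not: Dlst, Pfkl, Pgd, Acly, Idh3b and Dld, the last at a ratio near 0. Of 426 values, 6 moved by more than the probe set SD of 0.44 without a called gene changing sign, and 1 called gene did change sign: Dlst was at -0.29 by its second brightest probe set and 0.51 as the mean of both. Over the 16 genes with a second probe set, 12 were higher in marginal zone cells, with medians of 0.43 for these genes together, 0.65 for glycolysis, 0.27 for the pentose phosphate pathway and 0.19 for the citrate cycle; fewer genes enter there. The floor at the 75th percentile, which leaves 30 genes, gave 0.40 for glycolysis and 0.22 for the citrate cycle. The pentose phosphate median turned to -0.07 with the mean of probe sets and -0.45 without the less specific probe sets, where Pgd moved. Genes past 2-fold toward marginal zone cells numbered 3 with deposited values, a common median, quantile normalization or either centring, where Hk2 joined at 1.01 to 1.05, 1 with a pseudocount or with the mean of probe sets, 0 by the second probe set, 9 at 1.5-fold and 0 at 3-fold. Rpia lies at the threshold, and genes past 2-fold toward follicular cells numbered 0 with deposited values, a common median, either centring, a pseudocount, the second probe set or 3-fold, and 2 at 1.5-fold. The share higher in marginal zone cells ran from 63.2% to 71.1% for the enzymes under the 11 alternatives other than the second probe set (75% of its 16 genes), beside 47.2% to 51.4% for all measured genes. No paired analysis was possible because each group holds 1 array, and no replicate could be left out. Values near the floor have no order, which limits Aldoc, Suclg2 and Idh2.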
